A study of Homo sapiens with 12 samples.

Results

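Polypeptide GalNAc-transferases are Golgi enzymes that start mucin-type O-glycans by moving N-acetylgalactosamine from its nucleotide sugar donor, UDP-GalNAc, onto serine or threonine. Further enzymes then build the core structures and cap them, often with sialic acid. The family is large and its members overlap in what they modify: some act on bare peptide, while others prefer a peptide that already carries a GalNAc nearby. Secreted and membrane mucins are the best known products in glandular epithelium such as that of the bile duct and gallbladder.

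The members of this family examined were GALNT1, GALNT2, GALNT3, GALNT4, GALNT5, GALNT6, GALNT7, GALNT10, GALNT12 and GALNT14, which are 10 of 60617 genes in each file. The list was put together with GALNT5 chosen by its higher level with both siRNAs, so the values of GALNT5 against control are a description and no test of it. The cells were SNU308, an established human gallbladder cancer line labelled wild type. They received 1 of 3 siRNAs at 25 nM for 3 days: a non-targeting control (NTC), siCEACAM6#2 or siCEACAM6#3, the latter 2 against the adhesion molecule CEACAM6. Each group had 4 samples from separate experiments, and the knockdown was transient, in 1 cell line. Both siRNA groups were compared with the same 4 NTC samples, so the 2 comparisons with NTC are not independent of each other.

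Total estimated counts ran from 21799476 to 22059456 per sample. CPM, the count scaled to a library size adjusted with TMM factors, serves below to compare 1 gene between samples. TPM, which is scaled per transcript length, serves to compare genes. A gene is said to have passed the test when its adjusted p in limma-voom was under 0.05 over 17620 genes tested. All 7 markers of biliary epithelium were above 1 TPM in every sample, with a summed level of 8223 to 9384 TPM. The summed level was at most 2.48 TPM for 4 leukocyte markers, 2.91 for 3 endothelial, 4.65 for 4 fibroblast and 0.438 for 3 hepatocyte markers. After siCEACAM6#2, endothelial markers summed to 1.57 to 2.03 TPM, below the 2.12 to 2.72 of NTC, and fibroblast markers to 3.41 to 3.70 TPM, above the 2.53 to 3.39 of NTC. Of the 3 endothelial markers VWF passed as lower after siCEACAM6#2 (log2 fold change -0.44, SE 0.10, adjusted p = 0.042), CDH5 passed as higher after siCEACAM6#3 than after siCEACAM6#2 (1.31, SE 0.25, adjusted p = 0.0160), and PECAM1 passed in no comparison, with 0.61 and 1.03 against NTC. The part of these markers in the results was not tested. The mitochondrial share of counts was 11.8% to 12.9% in NTC, 12.2% to 13.3% after siCEACAM6#2 and 12.5% to 15.3% after siCEACAM6#3; its part in the results was not tested either.

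The target came first. CEACAM6 was at 524, 569, 596 and 619 CPM in NTC, at 353, 343, 286 and 329 CPM after siCEACAM6#2 and at 423, 386, 424 and 438 CPM after siCEACAM6#3. The 3 groups did not overlap, and knockdown was partial and weaker after siCEACAM6#3. The limma-voom log2 fold change was -0.82 (SE 0.068, adjusted p = 2.71e-05) for siCEACAM6#2 and -0.46 (SE 0.067, adjusted p = 0.0151) for siCEACAM6#3. The second call was lost (adjusted p up to 0.0792) in 4 of 12 fits that left out 1 sample, which were NTC replicates 2, 3 and 4 and siCEACAM6#3 replicate 3.

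The sequences of both siRNA targets are shown because a match to the seed, bases 2 to 8 of the guide strand, can let an siRNA act on other transcripts. For each siRNA the guide strand is assumed to be the target sequence read in reverse complement. Capitals mark the bases that pair with the seed; the targets lie in the 3′ UTR of CEACAM6 on the plus strand of GRCh38, at chr19:41771369-41771389 for siCEACAM6#2 and chr19:41771611-41771631 for siCEACAM6#3.
siCEACAM6#2: cagccatgcaatgCCAAATAa
siCEACAM6#3: ctcctaatagtcaTACTAGTa

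The 10 members' longest annotated 3′ UTR was that of GALNT5, and it held 1 match to the siCEACAM6#2 seed. A second match lay in GALNT7. The windows below are drawn to the length of the target, with only the seed match in capitals. Other bases that they share with the target are in lower case. They lie on the plus strand of GRCh38 at chr2:157312540-157312560 for GALNT5 and chr4:173323028-173323048 for GALNT7.
GALNT5: atactgatttcatCCAAATAa
GALNT7: cctattaggaaaaCCAAATAt

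Outside the seed match most bases of these windows differed from the target: the GALNT5 window differed at 12 of 21 bases and the GALNT7 window at 10. The siCEACAM6#3 site, TACTAGT, was in none of the 10 annotated 3′ UTRs. Among 13750 tested coding genes with an annotated 3′ UTR, 15.6% held CCAAATA and 6.63% held TACTAGT as written, in the sense of the transcript, with a median 3′ UTR of 1283 bases against 7143 in GALNT5. Over all annotated transcripts of the members, none came closer to either full target than 6 differences, in GALNT10 for siCEACAM6#2. A letter match is a description and no evidence that the siRNA acted there.

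In control cells, 9 members were expressed at levels that spanned from 2.20 to 51.5 TPM, and GALNT14 was close to 0. GALNT10 stood highest, at 51.5 ± 1.84 TPM (SD, n = 4). GALNT1 at 42.7 ± 2.00, GALNT12 at 40.5 ± 1.41 and GALNT3 at 37.9 ± 3.27 TPM followed, and each overlapped its neighbour in this order. GALNT2 at 25.5 ± 0.986, GALNT7 at 20.7 ± 1.10, GALNT5 at 8.50 ± 0.312, GALNT6 at 4.15 ± 0.705 and GALNT4 at 2.20 ± 0.162 TPM came next, and their ranges did not overlap one another. GALNT14, which has been studied with death receptor signaling, was at 0 in 2 NTC samples and at 0.107 and 0.0391 TPM in the other two.

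**Figure D1:**
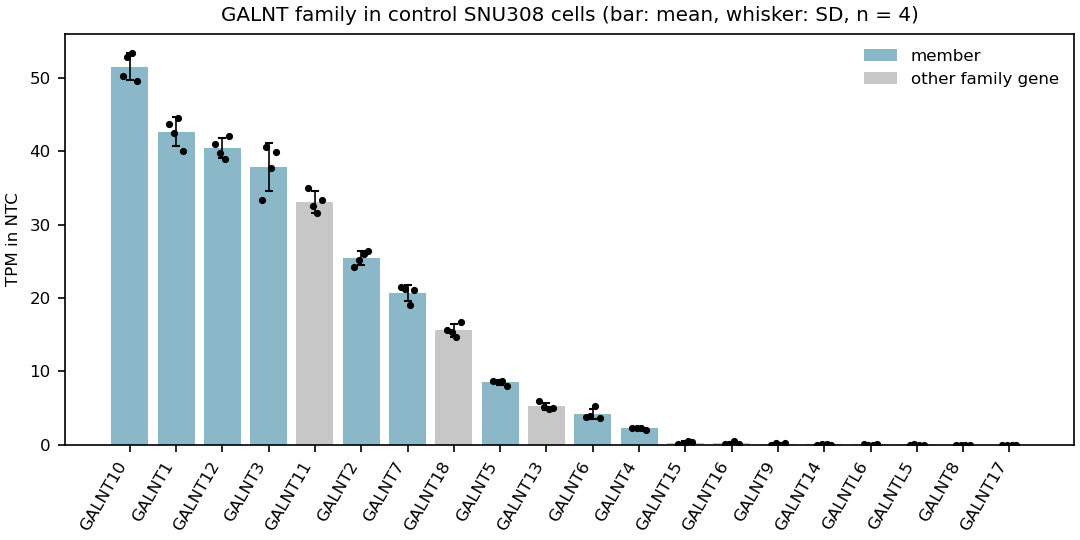
TPM (length-scaled level) of the 20 GALNT family genes in the 4 NTC samples: bars are means, whiskers SD and points samples, with the 10 members in blue and the other 10 genes in grey. GALNT10 is highest at 51.5 TPM, GALNT5 stands at 8.50, and genes to the right of GALNT4 are all under 0.25 on average.

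The 10 other genes of the family summed to 54.5 ± 2.14 TPM in NTC. Of these, GALNT11 (33.1 ± 1.47 TPM), GALNT18 (15.6 ± 0.844) and GALNT13 (5.21 ± 0.475) were above the level of GALNT4, while GALNT15, GALNT16, GALNT9, GALNTL6 and GALNTL5 averaged under 0.25 TPM. GALNT8 and GALNT17 were listed at 0 in all 4 NTC samples. Of these 10 genes 4 were tested, and none passed in any of the 3 comparisons, nor did any at an unadjusted p under 0.05. Of all genes tested, 1.25% passed after siCEACAM6#2, 0.0681% after siCEACAM6#3 and 1.47% between the siRNAs. At the unadjusted threshold these were 2400, 2199 and 2346 of 17620 genes. The 10 members summed to 234 ± 3.57 TPM in NTC, 244 ± 14.5 after siCEACAM6#2 and 245 ± 21.3 after siCEACAM6#3 (SD, n = 4), between 79.7% and 82.5% of the family's TPM in any sample. The ranges of these sums overlapped between all 3 groups.

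GALNT5 (ENSG00000136542; chr2:157257705-157318491, plus strand) codes for a transferase with an unusually long stem between its membrane anchor and catalytic domain. Its canonical transcript codes for 940 residues, against 552 to 657 in the other 9. Its level was 57.8, 55.2, 60.7 and 58.1 CPM in NTC. With siCEACAM6#2 it was 71.6, 74.4, 79.5 and 71.8 CPM, and after siCEACAM6#3 78.5, 84.9, 84.3 and 76.6 CPM. Every siRNA sample lay above every NTC sample, and both siRNA groups overlapped each other.

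The fitted difference of GALNT5 from NTC was a 1.28-fold higher level after siCEACAM6#2 (log2 fold change 0.36, SE 0.055, 95% interval 0.24 to 0.48) and a 1.40-fold higher level after siCEACAM6#3 (0.48, SE 0.055, 0.37 to 0.60). These values chose the gene and carry no test here. Its place in the order of p, likewise only a description, was rank 24 of 17620 genes after siCEACAM6#2 and rank 2 after siCEACAM6#3. The adjusted p that goes with these places was 0.0050 and 0.00126. Among the other members tested, the lowest adjusted p was that of GALNT7 after siCEACAM6#2 (0.643) and of GALNT1 after siCEACAM6#3 (0.288). Setting these beside GALNT5 is no test, because its values chose it.

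On the TPM scale GALNT5 was at 8.04 to 8.72 in NTC, 10.5 to 12.3 after siCEACAM6#2 and 10.9 to 12.1 after siCEACAM6#3. The siRNA groups again lay wholly above NTC. A fit to log2 TPM gave the same direction but an adjusted p of 0.0919 and 0.0941 for siCEACAM6#2, and of 0.111 and 0.118 for siCEACAM6#3, with pseudocounts of 0.1 and 1, so that it passed the threshold only on counts. The estimated count for each unit of TPM, relative to the median gene, ran from 4.10 to 4.86 over the 12 samples. Of the family's TPM, GALNT5 made up 2.95% ± 0.117 in NTC, 3.72% ± 0.244 after siCEACAM6#2 and 3.84% ± 0.286 after siCEACAM6#3 (SD, n = 4).

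The direct comparison of the siRNAs was not used to choose GALNT5. Its level was 1.09-fold higher after siCEACAM6#3 than after siCEACAM6#2 (log2 fold change 0.13, SE 0.054, 95% interval 0.011 to 0.24), which did not pass the test over all genes (limma-voom adjusted p = 0.320). The two-sided exact permutation test of 4 against 4 samples gave p = 0.0857, where the smallest it can give is 0.0286. CEACAM6 itself was higher after siCEACAM6#3 than after siCEACAM6#2 (log2 fold change 0.35, SE 0.068, adjusted p = 0.0160). That call was lost without replicate 3 of either siRNA group (adjusted p = 0.0576 and 0.0564) and in both fits to TPM (0.0696 and 0.0683). The siRNA group with the higher mean of GALNT5 was the group with more of the target left, though the GALNT5 ranges of both overlapped. Whether these levels are related was not tested.

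**Figure D2:**
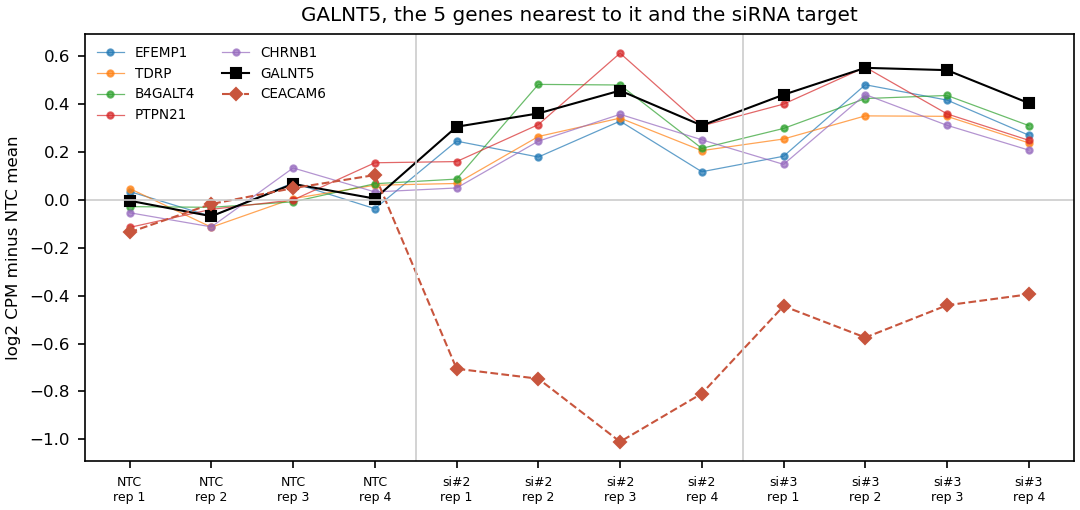
log2 CPM minus the NTC mean of the same gene in each of the 12 samples (si#2 and si#3 stand for siCEACAM6#2 and siCEACAM6#3), for GALNT5 (black squares), the 5 genes nearest to it and CEACAM6 (red diamonds). Vertical lines part the groups; GALNT5 lies above 0 in all 8 siRNA samples, and CEACAM6 below 0 in all 8.

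The genes whose pattern over the 12 samples was nearest to GALNT5 were found among 9889 tested genes with a mean of at least 10 CPM, by the root mean square difference of log2 CPM after centring each gene on its mean. They were EFEMP1 (0.0858), an extracellular matrix glycoprotein; TDRP (0.0916); B4GALT4 (0.0938), a galactosyltransferase; PTPN21 (0.105), a tyrosine phosphatase; and CHRNB1 (0.107), a subunit of the muscle acetylcholine receptor. For scale, the median gene was at 0.236 and a flat line at 0.213. B4GALT4, for example, had means of 48.0, 60.2 and 62.0 CPM in the 3 groups; no test is given, as these genes were picked for likeness to GALNT5. The nearest other member was GALNT7 (0.173, rank 639), and the least alike was GALNT10 (0.260, rank 6810).

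For the other 8 members tested, the comparisons with NTC asked whether the family moved together with GALNT5. None of the 8 passed in either comparison, where 1.25% of all tested genes passed after siCEACAM6#2 and 0.0681% after siCEACAM6#3. With so few genes passing, none would be expected among 8, so this count cannot answer that question. At an unadjusted p under 0.05, 0 of 8 passed after siCEACAM6#2 and 3 of 8 after siCEACAM6#3, against 2400 and 2199 of all 17620 genes, and these 3 were GALNT1, GALNT4 and GALNT7. The edgeR and DESeq2 tests called none of the 8 against NTC, and of 9 other settings only that with weights for sample quality called 1, GALNT1 after siCEACAM6#3 (log2 fold change 0.20, adjusted p = 0.0326). The number of all genes called after siCEACAM6#3 rested on single samples: it was 12, but 258 when siCEACAM6#3 replicate 1 was left out and 2 when replicate 3 was. The median log2 fold change of the 8 members was -0.011 after siCEACAM6#2 and 0.11 after siCEACAM6#3, beside 0.00017 and -0.0032 over all genes tested. With siCEACAM6#3, 6 of 8 were positive, and after siCEACAM6#2, 3 of 8, beside 48.9% and 50.1% of all genes tested.

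**Figure D3:**
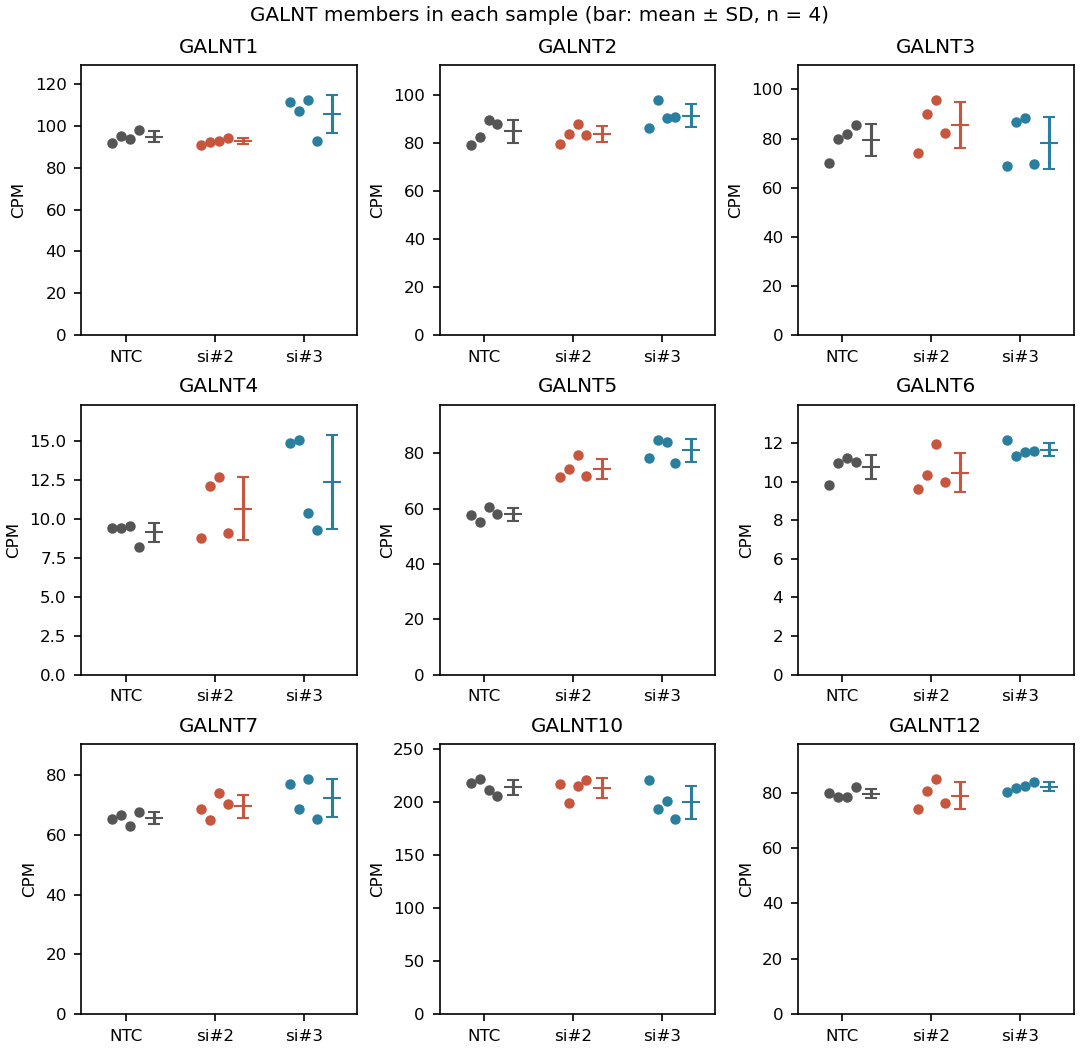
CPM of the 9 members that passed the filter on low counts, 1 panel for each gene with its own axis from 0; points are the 4 samples of NTC, siCEACAM6#2 (si#2) and siCEACAM6#3 (si#3), and bars are mean ± SD. Both siRNA groups lie wholly above NTC for GALNT5, which was chosen by its higher level with both siRNAs. The share of all tested genes that separate in this way was not counted.

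GALNT1 and GALNT2 are broadly expressed transferases that act on bare peptide. GALNT1 (chr18:35581117-35711834, plus strand) was at 91.9, 95.2, 93.9 and 98.1 CPM in NTC, at 91.0, 92.4, 92.9 and 94.2 after siCEACAM6#2 and at 111, 107, 112 and 92.7 after siCEACAM6#3. Of the siCEACAM6#3 samples, 3 of 4 lay above all samples of the other groups, and replicate 4 lay within the NTC range. The log2 fold change against NTC was -0.033 (SE 0.058, 95% interval -0.16 to 0.090) after siCEACAM6#2 and 0.15 (SE 0.058, 0.033 to 0.28) after siCEACAM6#3, with adjusted p of 0.874 and 0.288. GALNT2 (chr1:230057990-230282122, plus strand) ranged from 79.5 to 89.8 CPM in NTC, 79.8 to 88.0 after siCEACAM6#2 and 86.6 to 97.9 after siCEACAM6#3, and all 3 ranges overlapped.

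GALNT3 and GALNT6 form a closely related pair, and GALNT3 is known for protecting the phosphate hormone FGF23 from cleavage. GALNT3 (chr2:165747588-165794659, minus strand) was at 70.2 to 85.5 CPM in NTC, 74.2 to 95.5 after siCEACAM6#2 and 68.7 to 88.4 after siCEACAM6#3, with no separation of the groups. GALNT6 (chr12:51351247-51392867, minus strand) was at 9.82 to 11.2 CPM in NTC, at 9.60 to 11.9 after siCEACAM6#2 and at 11.3 to 12.2 after siCEACAM6#3. All 4 siCEACAM6#3 samples lay above NTC in CPM, yet by little, and the log2 fold change of 0.12 (SE 0.083) did not pass (adjusted p = 0.575). How many of all genes tested separate like this was not counted. On the TPM scale GALNT6 overlapped, at 3.68 to 5.19 in NTC and 3.94 to 6.31 after siCEACAM6#3.

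GALNT7 and GALNT10 prefer substrates that already carry GalNAc. GALNT7 (chr4:173168811-173323967, plus strand) was at 62.9 to 67.5 CPM in NTC, 64.8 to 74.0 after siCEACAM6#2 and 65.2 to 78.5 after siCEACAM6#3. Its log2 fold change was 0.081 (SE 0.064) after siCEACAM6#2, the siRNA whose seed site it holds, and 0.14 (SE 0.064) after siCEACAM6#3, with adjusted p of 0.643 and 0.394. GALNT10 (chr5:154190730-154420984, plus strand) had the lowest fitted value after siCEACAM6#3: it was at 206 to 222 CPM in NTC, 199 to 221 after siCEACAM6#2 and 184 to 221 after siCEACAM6#3, a log2 fold change of -0.10 (SE 0.057, adjusted p = 0.474) that turned to 0.027 in fits to TPM.

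GALNT12 and GALNT4 are likewise active on glycosylated peptide. GALNT12 (chr9:98807670-98850081, plus strand) had a log2 fold change of -0.015 (SE 0.050) after siCEACAM6#2 and of 0.044 (SE 0.050) after siCEACAM6#3. The 95% intervals were -0.12 to 0.092 and -0.063 to 0.15. The range of GALNT12 was 74.2 to 84.8 CPM over all 12 samples.

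GALNT4 (chr12:89519412-89524796, minus strand) is a gene of 1 exon, and 93.4% of its 5385 exon bases also belong to the read-through gene POC1B-GALNT4, so that the split of reads between both is uncertain. GALNT4 was at 9.42, 9.39, 9.54 and 8.21 CPM in NTC, at 8.74, 12.1, 12.7 and 9.09 after siCEACAM6#2 and at 14.9, 15.1, 10.4 and 9.27 after siCEACAM6#3. With each siRNA, 2 samples lay well above NTC and 2 near it. The log2 fold change was 0.20 (SE 0.16, adjusted p = 0.652) and 0.41 (SE 0.16, adjusted p = 0.313). GALNT4 took between 54.6% and 87.4% of the CPM assigned to both genes, and their sum, a measure added after the values were seen, was 14.5 ± 0.490 CPM in NTC, 14.6 ± 1.41 after siCEACAM6#2 and 17.1 ± 2.07 after siCEACAM6#3 (SD, n = 4). The sum in siCEACAM6#3 replicate 4, 14.2 CPM, lay within the NTC range of 13.95 to 14.96.

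**Figure D4:**
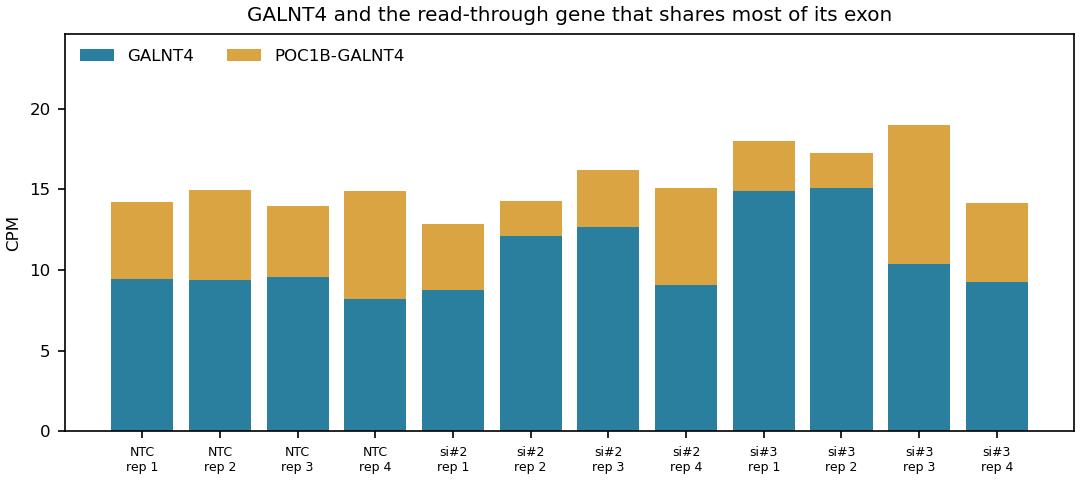
CPM of GALNT4 (blue) and of the read-through gene POC1B-GALNT4 (yellow) stacked for each of the 12 samples, with si#2 and si#3 for siCEACAM6#2 and siCEACAM6#3. The share of GALNT4 runs from 54.6% to 87.4%, while the sum in NTC stays between 13.95 and 14.96 CPM.

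The members also differed in how far samples of 1 group spread. The coefficient of variation of CPM in NTC ran from 2.18% in GALNT12 to 8.20% in GALNT3. With siCEACAM6#3 it was 24.3% in GALNT4, 13.5% in GALNT3 and 1.93% in GALNT12, while GALNT5 had 3.82%, 4.93% and 5.09% in the 3 groups. GALNT14 (chr2:30910467-31155202, minus strand) did not pass the filter on low counts and was not tested; it stayed between 0 and 0.141 CPM in all 12 samples.

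Between siCEACAM6#3 and siCEACAM6#2, none of the 9 members passed, where 1.47% of all genes tested did. The median log2 fold change of the 9 was 0.13, against -0.0043 over all genes, and 7 of 9 were positive. At an unadjusted p under 0.05, 3 of 9 passed, against 2346 of all 17620 genes, and these were GALNT1, GALNT2 and GALNT5. GALNT1 was the nearest to a call, at a log2 fold change of 0.19 (SE 0.058, adjusted p = 0.133). It was called by DESeq2 (0.19, adjusted p = 0.0369), with weights for sample quality (0.23, adjusted p = 0.0132) and without siCEACAM6#3 replicate 4 (0.25, adjusted p = 0.0126).

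**Figure D5:**
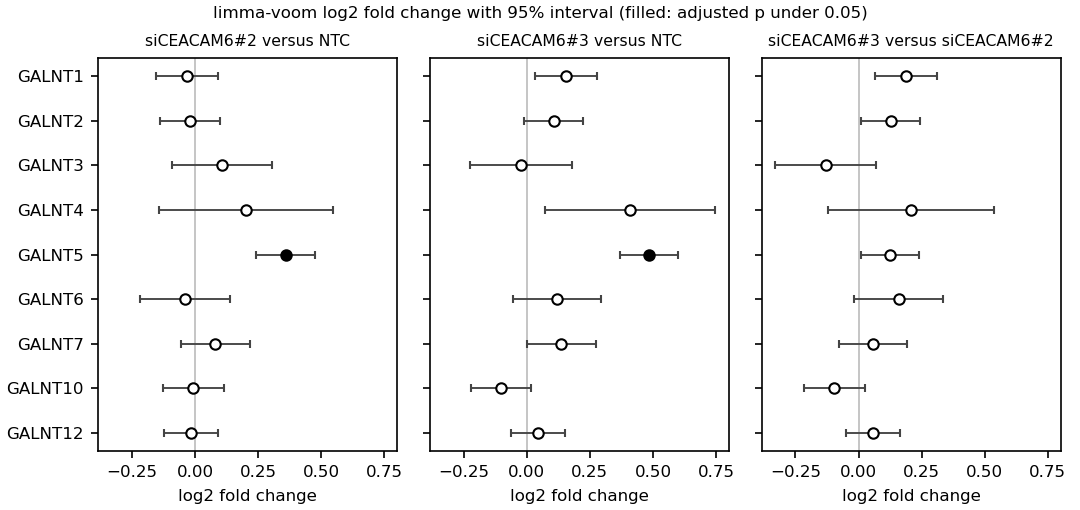
limma-voom log2 fold change of the 9 tested members in each of the 3 comparisons, with 95% intervals; filled points have an adjusted p under 0.05. GALNT5 is filled in both comparisons with NTC, which chose it, and no member is filled between the siRNAs.

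The enzymes that act after the transferases were read from a list of 8 genes of core synthesis and extension, of which 7 were tested. None passed in any comparison, where 1.25% of all tested genes passed after siCEACAM6#2, 0.0681% after siCEACAM6#3 and 1.47% between the siRNAs. The median log2 fold change was 0.013, 0.17 and 0.19 in this order. Positive values numbered 4, 7 and 7 of 7, beside 50.1%, 48.9% and 48.8% of all genes tested. At an unadjusted limma-voom p under 0.05, 0, 3 and 3 of 7 passed, against 2400, 2199 and 2346 of all 17620 genes. B3GNT3, which extends core O-glycans and was the highest of these in NTC, had log2 fold changes of 0.013, 0.11 and 0.099. Of 8 genes that supply the sugar donor, 8 were tested and none passed. Their median log2 fold change was 0.087 after siCEACAM6#2, 0.018 after siCEACAM6#3 and -0.048 between the siRNAs. In this order 7, 4 and 3 of 8 were positive. An unadjusted limma-voom p under 0.05 was found for 2, 2 and 3 of 8.

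Of 7 sialyltransferases, 6 were tested, and ST3GAL1, which caps core 1 O-glycans, was called between the siRNAs, where 1.47% of all genes tested were. It was at 26.3, 27.3, 29.6 and 27.7 CPM after siCEACAM6#2 and at 32.7, 32.8, 34.4 and 33.2 after siCEACAM6#3, without overlap, beside 30.3 to 33.0 in NTC. The log2 fold change between the siRNAs was 0.26 (SE 0.058, adjusted p = 0.0308). The call was lost in 5 of 12 fits without 1 sample (adjusted p up to 0.105 without siCEACAM6#3 replicate 3, the others being those without siCEACAM6#2 replicates 1, 2, 3 and 4). It was also lost with library size only (adjusted p = 0.0575), without the filter on low counts (0.0895) and in both fits to TPM (0.491 and 0.487). ST6GALNAC2, the highest sialyltransferase in NTC, differed by 0.095 (SE 0.077) between the siRNAs and did not pass.

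Among mucins, the carriers of these glycans, 10 of 13 listed genes were tested. None passed against NTC, where 1.25% of all tested genes passed after siCEACAM6#2 and 0.0681% after siCEACAM6#3. After siCEACAM6#2, 8 of 10 log2 fold changes were negative, and after siCEACAM6#3, 9 of 10 were positive. Of all genes tested, 50.1% and 48.9% were positive. At an unadjusted limma-voom p under 0.05, 3, 7 and 8 of 10 passed after siCEACAM6#2, after siCEACAM6#3 and between the siRNAs. Of all 17620 genes, 2400, 2199 and 2346 did. Between the siRNAs, where 1.47% of all genes passed, 5 of 10 were higher after siCEACAM6#3, namely MUC5AC (log2 fold change 0.67), MUC16 (0.72), MUC5B (0.55), MUC1 (0.53) and MUC20 (0.41). The other five did not pass, and 1 of them, MUC15, had a negative value (-0.38, adjusted p = 0.428). MUC5AC kept its call in all 12 fits without 1 sample, MUC5B and MUC16 in 10, MUC1 in 6 and MUC20 in 3. The fits that lost a call left out siCEACAM6#2 replicate 2 or 3 for MUC5B and siCEACAM6#2 replicate 3 or 4 for MUC16. For MUC1 they left out any siCEACAM6#2 replicate or siCEACAM6#3 replicate 2 or 3, and for MUC20 these samples, siCEACAM6#3 replicate 4 or NTC replicate 2 or 3. Of the 5 that passed, fits to TPM kept the call of MUC5AC alone.

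The levels are those of RNA in bulk cells. Fewer cells that express a gene and less RNA of it in each cell cannot be told apart, and neither the enzymes nor their glycans were measured.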

How the data were processed

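RNA-seq was done on 12 samples of SNU308 cells, 3 groups of 4. According to the study's methods, reads were trimmed with trim_galore 0.6.4 and quantified with kallisto on GRCh38.p13; the GENCODE release is not given in the sources used here, and labels and methods differ on the kallisto version, the read layout and the transfection reagent. For each sample the authors deposited 1 file of unscaled estimated counts of genes and 1 file of TPM. Of 60617 genes, 60357 matched a name.

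Here the counts were rounded and analysed by limma-voom (limma 3.58.1, with edgeR 4.0.16, under R 4.3.3; filterByExpr by group, TMM, voom, a mean for each of 3 groups, Benjamini-Hochberg adjustment over 17620 genes, threshold 0.05). The procedure was tested on simulated data. TPM served for levels between genes. Alternatives were edgeR's quasi-likelihood test, DESeq2 1.42.0, other size factors, no filter, sample weights, a replicate block, limma on log2(TPM + 1) and log2(TPM + 0.1), and leaving out each sample. Total counts of about equal size in all samples make counting error small for well expressed members and large for GALNT14. Coordinates, exons and UTRs came from GENCODE release 44 on GRCh38, and siRNA targets from the study's materials. The sum of GALNT4 and POC1B-GALNT4 was added after seeing the data.

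Named genes were the 10 members, the other 10 of the family, POC1B-GALNT4, CEACAM6, pathway genes called in any comparison, the highest gene of each pathway list in NTC, and the 5 genes nearest to GALNT5. A gene under this rule is not reported here. The members and lists were chosen with earlier results of these data known. The promoter table used here had no entry for GALNT5.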

Additional observations from a re-analysis of the deposited data

Results flagged for a closer look

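Of 27 sets of 4 samples (9 members in 3 groups), 1 held a sample that stood far from its group: GALNT4 in NTC replicate 4, at 8.21 CPM, while the other NTC samples were at 9.39 to 9.54 CPM. The gap took up 0.887 of the range of the group, above Dixon's 95% critical value. Chance flags about 1 in 20 groups. In the same sample the read-through gene POC1B-GALNT4 was at 6.66 CPM, the highest of the 4 NTC samples, and the sum of both, 14.9 CPM, lay within the range of the other three.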

How the results depend on the processing

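GALNT5 was chosen by its higher level with both siRNAs, so its values against NTC describe the settings and are no test of it. Its direction there was kept in all 12 fits that left out 1 sample and in all 9 other settings. Its call was kept in 12 and 7 of these for each siRNA. Both TPM fits lost the call, at log2 fold changes of 0.35 and 0.39 for siCEACAM6#2 and 0.39 and 0.43 for siCEACAM6#3. Members called, a count that includes GALNT5, fell to 0 against NTC in both TPM fits. With sample weights the count rose to 2 for siCEACAM6#3, where GALNT1 was added (0.20). Between the siRNAs 1 member, GALNT1, was called by DESeq2 (0.19), with sample weights (0.23) and in 1 fit without a sample, so that members called ran from 0 to 1.

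Values that turned sign were small. Against NTC for siCEACAM6#2, TPM fits gave 0.028 for GALNT1, 0.088 and 0.11 for GALNT6 and 0.11 for GALNT10; for siCEACAM6#3 they gave 0.027 for GALNT10, and sample weights gave 0.050 for GALNT3. Leaving out 1 sample, the siCEACAM6#2 values ran from -0.050 to 0.0087 for GALNT2, -0.10 to 0.0042 for GALNT6, -0.026 to 0.027 for GALNT10 and -0.049 to 0.019 for GALNT12, and the siCEACAM6#3 value of GALNT3 from -0.080 to 0.044. The cause was not tested.

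Genes called over the whole table depended on the setting. For siCEACAM6#2 they were 221, and 534 with DESeq2, 1120 with sample weights, 5 and 6 in TPM fits and 49 (without siCEACAM6#2 replicate 3) to 364 (without siCEACAM6#3 replicate 4) in fits without 1 sample. For siCEACAM6#3 they were 12, and 221, 382, 4 and 4, 24 without the filter and 2 to 258. Between the siRNAs they were 259, and 556, 560, 49 and 53, and 83 (without siCEACAM6#2 replicate 3) to 651 (without siCEACAM6#3 replicate 1).

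No pairing by replicate number held throughout. Deviations of samples with the same number correlated at -0.060 to 0.22, with 2 of 12 pairs over 0.1. Those with different numbers correlated at -0.25 to 0.18, with 3 of 36 pairs over 0.1. For 0 of 12 samples was the same number the best match in both other groups at once. Replicate 1 of siCEACAM6#2 and replicate 1 of siCEACAM6#3 were each other's best match, at 0.22. A replicate block raised the genes called for siCEACAM6#3 from 12 to 87 and changed no call of a member. Depth limits GALNT14, and the uncertain split of reads with POC1B-GALNT4 limits GALNT4.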
